A study of Homo sapiens with 10 samples.

Results

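GKN2, LCN2, TFPI2, EDN1 and CLU encode proteins that cells release into their surroundings. These 5 genes were chosen from 14884 genes with a row of 1 symbol, by their measured difference between the groups. The groups were PC-3 clones that carried CENPU and clones that carried an empty vector. The differences of the 5 genes between the groups are therefore given as a description and without a test. Each gene was represented by its row of highest mean over the 10 clones, and each had 1 row, probe sets 16898567 (GKN2), 17089525 (LCN2), 17059828 (TFPI2), 17004903 (EDN1) and 17075731 (CLU). The platform table pairs the CLU row with a non-coding transcript of that gene.

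PC-3 is an established human prostate cancer line that was derived from a bone metastasis. The CENPU clones (numbers 1, 4, 5, 7 and 13) carried a p-Lenti vector with CENPU, a gene for a centromere protein, and the control clones (numbers 1 to 5) carried the same vector without an insert. All 10 had passed blasticidin selection and were clonal isolates, so each clone is a separate outgrowth of this 1 cell line and clones of a group can differ for reasons other than the insert. RNA of each clone was hybridised to 1 Affymetrix array, and array medians of the deposited log2 values lay between 4.62 and 4.76. CENPU itself had values of 9.37, 9.58, 8.70, 9.22 and 9.84 in CENPU clones 1, 4, 5, 7 and 13, against 6.43, 5.78, 6.30, 6.24 and 6.56 in control clones 1 to 5, so every clone matched its label. Among markers of epithelium and prostate, 1 of 12 measured genes was higher in CENPU clones (HOXB13, a prostate lineage transcription factor, log2 difference 0.42 ± 0.11 SE, limma adjusted p = 0.0323), 0 were lower and 2 had an unadjusted p under 0.05. HOXB13 passed in 3 of 10 fits without 1 clone and not without control 2, CENPU 7 and CENPU 13 (limma adjusted p = 0.0934), and after quantile normalization 0 of the 12 were higher. EPCAM, an epithelial marker, had the largest log2 difference of the 12, 0.85 ± 0.29 (SE), and did not pass (limma adjusted p = 0.0839). Without control 2, CENPU 7 and CENPU 13 that difference was 1.14 (limma adjusted p = 0.0676). Of the 12 genes 5 had a log2 difference below 0. KRT18, a keratin of simple epithelium, averaged 10.6 ± 0.352 in CENPU clones, against 10.8 ± 0.152 in controls (SD, n = 5 each). KLK3, the prostate-specific antigen gene, averaged 5.57 ± 0.150 in CENPU clones, against 5.61 ± 0.129 in controls (SD, n = 5 each). Of the 5 measured markers of leukocytes, endothelium and fibroblasts, 0 passed in limma, also at an unadjusted p under 0.05, and their log2 differences ran from -0.18 to 0.27. CD68, a macrophage marker, was measured at 10.2 ± 0.384 in CENPU clones, against 10.4 ± 0.285 in controls (SD, n = 5 each). The other markers of this list were far dimmer. Means in CENPU clones and controls were 4.19 and 4.17 for CD14, also a macrophage marker, and 2.73 and 2.81 for DCN of fibroblasts. For the endothelial markers they were 5.38 and 5.11 (PECAM1) and 4.35 and 4.53 (VWF).

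Secreted proteins enter the endoplasmic reticulum through a signal peptide, pass the Golgi and act outside the cell, on the cell of origin or on others. GKN2 is a gastrokine of the stomach surface epithelium, with a BRICHOS domain, and is bound to the trefoil peptide TFF1 in gastric mucus. LCN2 is a lipocalin that traps iron-loaded bacterial siderophores and is a known NF-kB target in epithelia. TFPI2 is a Kunitz inhibitor of plasmin and other serine proteases that is deposited in the extracellular matrix, EDN1 is the precursor of the vasoconstrictor peptide endothelin-1, and CLU is an extracellular chaperone.

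The promoters of GKN2, LCN2, TFPI2 and EDN1 are shown so that their motifs can be compared, and that of CLU was not analysed here. Each is the 250 bases before a RefSeq start on GRCh38.p14, 5′ to 3′ on the strand of the gene. Capitals mark matches to 3 motifs searched on both strands, namely AP-1 (TGANTCA), the TATA box (TATAAA) and the kB motif of NF-kB. The windows are chr2:68952894-68953143 (minus strand) for GKN2, chr9:128149203-128149452 (plus) for LCN2, chr7:93890754-93891003 (minus) for TFPI2 and chr6:12290111-12290360 (plus) for EDN1. EDN1 has 3 windows in the table, and the one shown was chosen for its TATA match.
GKN2: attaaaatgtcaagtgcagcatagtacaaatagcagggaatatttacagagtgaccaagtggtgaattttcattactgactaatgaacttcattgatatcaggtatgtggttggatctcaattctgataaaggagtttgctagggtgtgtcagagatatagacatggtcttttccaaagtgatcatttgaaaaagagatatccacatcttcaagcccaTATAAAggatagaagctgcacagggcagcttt
LCN2: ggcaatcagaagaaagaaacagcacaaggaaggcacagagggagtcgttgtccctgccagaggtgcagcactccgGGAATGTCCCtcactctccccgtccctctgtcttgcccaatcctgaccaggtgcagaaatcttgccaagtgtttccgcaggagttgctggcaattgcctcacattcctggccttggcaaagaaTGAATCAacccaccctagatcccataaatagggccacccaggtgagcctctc
TFPI2: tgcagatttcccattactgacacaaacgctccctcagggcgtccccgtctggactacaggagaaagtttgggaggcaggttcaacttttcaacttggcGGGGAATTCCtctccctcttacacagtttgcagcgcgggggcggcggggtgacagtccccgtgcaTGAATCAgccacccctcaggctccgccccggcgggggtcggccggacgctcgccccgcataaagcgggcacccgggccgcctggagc
EDN1: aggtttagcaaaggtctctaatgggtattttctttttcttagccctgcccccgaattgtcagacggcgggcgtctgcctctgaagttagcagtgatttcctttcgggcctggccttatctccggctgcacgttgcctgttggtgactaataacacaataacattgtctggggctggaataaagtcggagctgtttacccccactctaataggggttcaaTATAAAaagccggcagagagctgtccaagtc

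LCN2 and TFPI2 each held an AP-1 match, with the same 7 letters (TGAATCA) starting 52 and 87 bases before the start, and a kB match. The kB match began 175 bases before the start in LCN2, on the opposite strand, and 152 bases before it in TFPI2, on the strand of the gene. GKN2 and EDN1 held neither motif, also in the other windows of EDN1, but had a TATA match beginning 32 and 31 bases before the start. The other windows of EDN1 held no TATA match. As the EDN1 window was chosen for this match, the share of windows with a TATA motif is no measure for it. Of 35114 windows of this length, 6.57% held the AP-1 motif, 5.21% the kB motif and 10.7% the TATA motif. A match is a string of letters and was not tested as a site of binding. Windows without a match were likewise not tested for the lack of a site.

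GKN2 had the widest gap between the groups among the 5 genes. Its log2 values were 4.58, 4.20, 4.64, 3.50 and 3.88 in CENPU clones 1, 4, 5, 7 and 13, against 7.44, 6.03, 7.16, 6.75 and 7.78 in control clones 1 to 5. Every CENPU clone was below every control clone, with a gap of 1.39 between the highest CENPU clone (number 5) and the lowest control clone (number 2). Means were 4.16 ± 0.48 in CENPU clones, against 7.03 ± 0.67 in controls (SD, n = 5 each). The log2 difference was -2.87 ± 0.31 (SE), or 7.33-fold lower, which placed GKN2 at position 2 of 14884 genes ordered by fall. All 5 CENPU clones lay below the median of their own array for this gene, and 0 control clones did.

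LCN2 had log2 values of 6.29, 6.05, 6.37, 5.94 and 5.83 in CENPU clones 1, 4, 5, 7 and 13, against 7.28, 7.83, 6.98, 7.81 and 7.10 in control clones 1 to 5. The CENPU clones were close together, within 0.534, whereas the controls spanned 0.846, with control clones 2 and 4 highest. The groups were 0.615 apart at their nearest clones. Means were 6.09 ± 0.23 in CENPU clones, against 7.40 ± 0.40 in controls (SD, n = 5 each), a log2 difference of -1.31 ± 0.18 (SE) or 2.48-fold lower.

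TFPI2 had log2 values of 8.73, 7.83, 9.21, 8.77 and 8.35 in CENPU clones 1, 4, 5, 7 and 13, against 9.70, 9.66, 10.4, 9.38 and 10.1 in control clones 1 to 5. The groups did not overlap but came within 0.166 of each other, at CENPU clone 5 and control clone 4. CENPU clone 4 was the lowest and control clone 3 the highest. Means were 8.58 ± 0.52 in CENPU clones, against 9.85 ± 0.40 in controls (SD, n = 5 each), a log2 difference of -1.27 ± 0.25 (SE) or 2.42-fold lower.

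EDN1 had log2 values of 5.41, 4.35, 4.97, 5.23 and 4.55 in CENPU clones 1, 4, 5, 7 and 13, against 5.67, 5.59, 6.93, 5.75 and 5.71 in control clones 1 to 5. Control clone 3 stood far above the other 4 controls, which lay between 5.59 and 5.75, and the nearest clones of the groups were 0.178 apart. Means were 4.90 ± 0.45 in CENPU clones, against 5.93 ± 0.56 in controls (SD, n = 5 each), a log2 difference of -1.03 ± 0.28 (SE) or 2.04-fold lower. Without control clone 3 the log2 difference was -0.78 ± 0.20 (SE). CENPU clones 4 and 13 lay below their array medians for EDN1, and the other 8 clones above.

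CLU had log2 values of 7.07, 6.82, 6.64, 6.98 and 7.13 in CENPU clones 1, 4, 5, 7 and 13, against 7.46, 7.57, 7.55, 7.63 and 7.34 in control clones 1 to 5. The change was the smallest of the 5, yet the groups did not overlap, with a gap of 0.211 between CENPU clone 13 and control clone 5. Means were 6.93 ± 0.20 in CENPU clones, against 7.51 ± 0.12 in controls (SD, n = 5 each), a log2 difference of -0.58 ± 0.11 (SE) or 1.5-fold lower. By size of fall CLU stood at position 291 of 14884 genes, against 11 for LCN2, 14 for TFPI2 and 28 for EDN1. By spread within groups, in contrast, CLU stood at position 10566, with a pooled SD of 0.161, and GKN2 at position 544, with a pooled SD of 0.585.

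**Figure D1:**
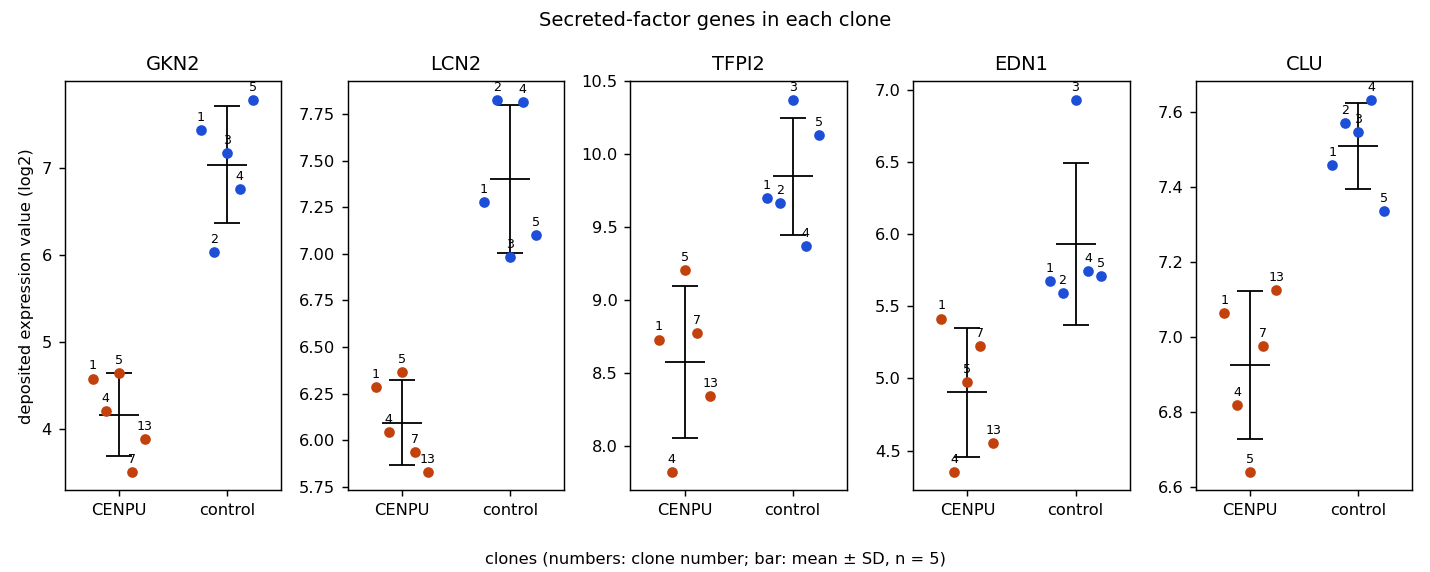
Deposited log2 values of each clone for the 5 secreted-factor genes, with CENPU clones left and control clones right in each panel, clone numbers beside the points, and bars for the mean ± SD (n = 5 each). Each panel has its own vertical scale, and in each the highest CENPU clone lies below the lowest control clone, by 1.39 for GKN2 and by 0.166 for TFPI2.

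All 5 genes were lower in CENPU clones in the fit across all genes (limma, Benjamini-Hochberg adjusted p under 0.05), where 10.1% of genes were called, 4.79% lower and 5.31% higher. The balance depended on the scaling, with 791 higher and 713 lower as deposited (52.6% of calls higher), against 44.2% of calls higher (754 of them, beside 952 lower) once arrays were quantile normalized and 43.6% (585, beside 758 lower) once they were centred on their medians. Their groups did not overlap, as was so for 9.73% of all genes, 5.19% with the CENPU clones lower and 4.54% with them higher. The genes were chosen from this contrast, so neither count is a finding. The share called moved with the clones used, from 613 genes without control clone 4 to 2471 without CENPU clone 1, with 1504 in all clones.

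A trend shared by many genes also ran through the clones. The correlation of a clone's deviations with the genomic span of 11915 protein-coding genes (Spearman, across genes, which are not replicates) was -0.160, -0.0357, 0.197, 0.316 and 0.360 in CENPU clones 1, 4, 5, 7 and 13, against -0.0935, -0.355, -0.163, -0.279 and -0.165 in control clones 1 to 5. It was positive in 3 of 5 CENPU clones and negative in all 5 controls, so it moved with the groups, and its part in the members' differences was not tested. CENPU 7, CENPU 13 and control 2 lay at its ends, and the other 7 clones still ran from -0.279 in control 4 to 0.197 in CENPU 5. Without these 3 clones the log2 differences were -2.81 ± 0.22 (SE) for GKN2, -1.06 ± 0.19 (SE) for LCN2 and -1.31 ± 0.32 (SE) for TFPI2. They were -1.10 ± 0.33 (SE) for EDN1 and -0.65 ± 0.13 (SE) for CLU. The members thus kept between 81.2% (LCN2) and 112% (CLU) of their difference among the 7 remaining clones. GKN2, LCN2 and CLU still passed the threshold there, and TFPI2 and EDN1 did not.

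**Figure D2:**
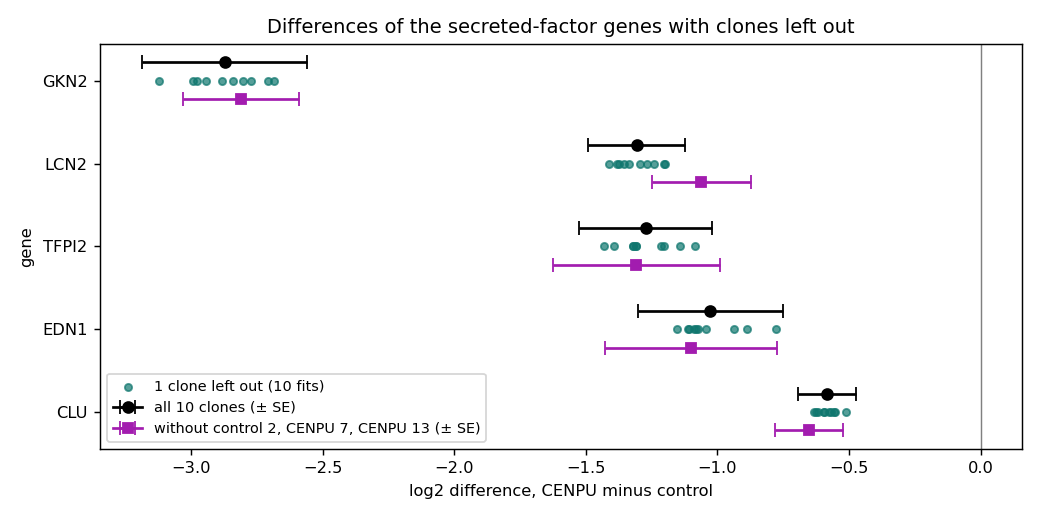
Log2 differences (CENPU minus control) of the 5 genes with all 10 clones (black, ± SE), with each clone left out in turn (green, 10 fits) and without control 2, CENPU 7 and CENPU 13 (purple, ± SE). All points lie below 0, GKN2 between -3.12 and -2.69 and EDN1 between -1.15 and -0.78 over the 10 fits.

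Within the groups the 5 genes did not share 1 order of clones. CENPU clone 1 was above the mean of its group for 5 of 5 genes and CENPU clone 5 for 4, while CENPU clones 4 and 13 were above it for 1 each. Control clone 3 was above its group mean for 4 of 5 genes and control clone 1 for 1. GKN2 deviated most in control clone 2 (-1.0 from its group mean on the log2 scale), where LCN2 deviated by 0.43 in the other direction. EDN1 deviated by 1.0 and TFPI2 by 0.52 in control clone 3, and in CENPU clone 4 they deviated by -0.55 and -0.75.

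**Figure D3:**
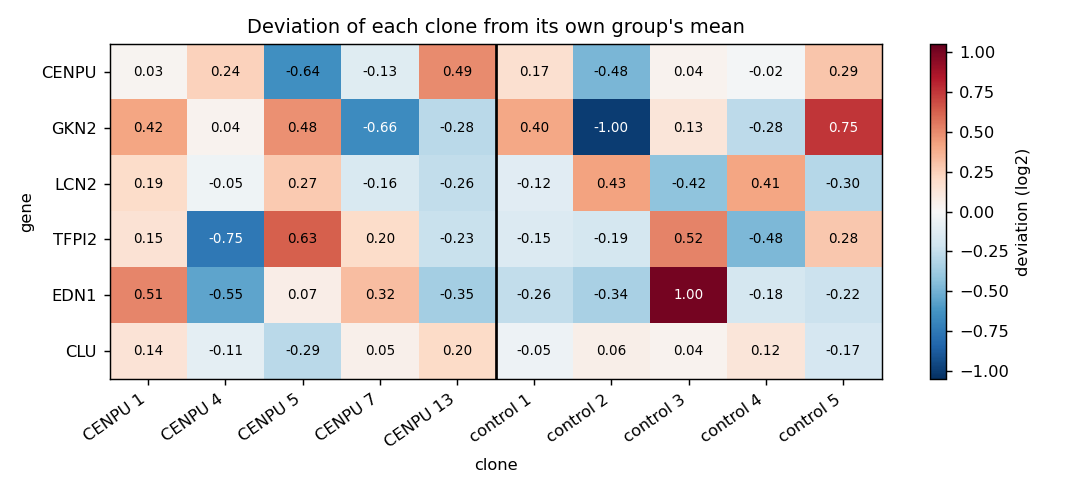
Deviation of each clone (columns, CENPU clones left of the line) from the mean of its own group, in log2 units, for CENPU and the 5 genes (rows). TFPI2 and EDN1 are both high in control 3 and both low in CENPU 4, and GKN2 and LCN2 have opposite signs in control 2.

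These deviations do not contain the difference that chose the genes, so their correlations over the 10 clones were tested for all 15 pairs among the 5 genes and CENPU. TFPI2 and EDN1 varied together most closely, with Pearson's r = 0.71 and Spearman's rho = 0.71. The exact two-sided permutation test within groups gave p = 0.0277 for r and p = 0.0471 for rho, and both adjusted values missed the threshold (0.208 and 0.353 over 15 pairs). Without CENPU clones 4 and 5, the farthest from the median for TFPI2, r was 0.76 over 8 clones. CENPU and LCN2 ran in opposite directions, with r = -0.66 (exact permutation p = 0.0223, adjusted p = 0.208) and rho = -0.66 (exact permutation p = 0.0339, adjusted p = 0.353). Without CENPU clone 5 and control clone 2 that r was -0.39. Of the 15 pairs, 0 passed after adjustment and 2 had an unadjusted exact permutation p under 0.05, for r and for rho alike. GKN2 and CLU had r = -0.55 (exact permutation p = 0.0909, adjusted p = 0.455), and the other pairs lay between -0.40 and 0.38.

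The genes most like each member were found by the Pearson correlation of group-centred values over the 10 clones, among genes with a mean of at least 5. GKN2 was matched most closely by USP22, a deubiquitinase (r = 0.94), NRBP1 (0.93) and RPN1, a subunit of the oligosaccharyltransferase (0.91). LCN2 was followed by EIF4EBP1, a repressor of translation initiation (0.95), the pseudogene ACTE1P (0.92) and GSC2 (0.91). For TFPI2 the closest were TRAF3, a signalling adaptor of tumour necrosis factor receptors (0.90), CAPN5, a calpain protease (0.88), and HAS2, a hyaluronan synthase (0.86). EDN1 was followed by IL7R, the interleukin-7 receptor (0.95), AMOTL2 (0.92) and AXIN2 (0.90), the last 2 known as targets of YAP and of Wnt signalling. CLU was matched by LPAR3, a receptor for lysophosphatidic acid (0.93), LSAMP (0.90) and HILPDA (0.88). Of these 15 genes EIF4EBP1 alone passed between the groups, higher in CENPU clones by 0.33 ± 0.09 (SE, limma adjusted p = 0.0471), opposite to LCN2. They are the top of a search over all such genes on shared arrays, and by Spearman's correlation 0 of 3 matches of GKN2 and 1 of 3 of each other member were the same. Leaving out 1 clone kept as few as 0 of the 3 for GKN2, TFPI2, EDN1 and CLU and 1 of the 3 for LCN2, so the names depend on single clones.

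Of 8 other measured gastrokine and BRICHOS genes 0 passed in limma, also at an unadjusted p under 0.05, and their median log2 difference was -0.02, the same as over all genes (-0.02). GKN1, the other gastrokine, averaged 2.91 ± 0.16 in CENPU clones, against 2.99 ± 0.09 in controls (SD, n = 5 each). Among 11 other products of gastric surface epithelium 1 was higher (AGR2, a protein disulfide isomerase of secretory cells, by 0.50 ± 0.09 SE, limma adjusted p = 0.0103), 0 were lower and 10 did not pass. Without control 2, CENPU 7 and CENPU 13 the count turned to 0 higher and 1 lower, as AGR2 no longer passed (0.40, limma adjusted p = 0.0864) and VSIG1, a cell adhesion protein of gastric epithelium, did (-0.91, limma adjusted p = 0.0323, against 0.22 with all clones). TFF1, the partner of GKN2, had log2 values of 10.5, 11.3, 8.90, 11.8 and 11.1 in CENPU clones 1, 4, 5, 7 and 13, against 11.2, 11.6, 11.5, 11.8 and 11.2 in control clones 1 to 5. CENPU clone 5 was low and the groups overlapped, with a log2 difference of -0.71 that did not pass (limma adjusted p = 0.314).

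Among the relatives of LCN2, 16 other lipocalins were measured, of which 0 passed in limma, 1 had an unadjusted p under 0.05 (APOD, an apolipoprotein that binds small lipids, log2 difference -0.31), and the median was -0.16, or -0.01 without control 2, CENPU 7 and CENPU 13. Among 6 measured genes for LCN2 receptors and iron handling, HAMP, the iron hormone hepcidin, was lower by 0.39 on the log2 scale (limma adjusted p = 0.0455) and 5 did not pass, LRP2, an LCN2 receptor, with -0.10 among them. HAMP passed in 1 of 10 fits without 1 clone. Of 12 other measured antimicrobial and acute-phase products 2 were lower, 0 higher and 10 did not pass, with a median of -0.15.

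SLPI, an inhibitor of neutrophil elastase made by mucosal epithelia, was one of those lower. Its log2 values were 8.19, 9.65, 6.95, 8.84 and 7.40 in CENPU clones 1, 4, 5, 7 and 13, against 9.64, 10.2, 10.8, 9.82 and 9.20 in control clones 1 to 5. CENPU clone 4 lay above control clone 5, so the groups overlapped, and the log2 difference was -1.73 ± 0.47 (SE, limma adjusted p = 0.0383). S100P, a calcium-binding protein, fell by 0.57 on the log2 scale (limma adjusted p = 0.0471), and CFB, complement factor B, had a log2 difference of -0.45 and did not pass (limma adjusted p = 0.0548). SLPI passed in 3 and S100P in 2 of the 10 fits without 1 clone, and neither passed without control 2, CENPU 7 and CENPU 13.

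No Kazal inhibitor of the list of protease inhibitors was measured. Of the 5 other measured genes of that list (TFPI, APP, APLP2, AMBP and WFDC2) 0 passed in limma and 2 had an unadjusted p under 0.05. Their median was 0.29 (0.13 without the 3 clones). TFPI, the inhibitor of tissue factor, averaged 5.71 ± 0.79 in CENPU clones, against 4.91 ± 0.19 in controls (SD, n = 5 each), and APP, whose longer isoforms carry a Kunitz domain, had a log2 difference of 0.46; neither passed (limma adjusted p = 0.120 and 0.0675). In the plasminogen and tissue factor system, 2 of 9 measured genes were higher, 0 lower and 7 did not pass. PROS1, protein S, a cofactor of anticoagulant protein C, rose by 1.03 ± 0.25 (SE, limma adjusted p = 0.0267), and ANXA2, a cell-surface receptor of plasminogen activation, by 0.49 ± 0.13 (SE, limma adjusted p = 0.0419). After quantile normalization 1 of the 9 was higher and 1 lower. PROS1 and ANXA2 passed in 4 and 2 of the 10 fits without 1 clone. Without the 3 clones their log2 differences were 0.79 and 0.53, and neither passed (limma adjusted p = 0.128 and 0.0832).

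In the endothelin system 1 of 10 other measured genes was lower, 0 were higher and 9 did not pass, with a median of -0.14. The gene that fell was FURIN, the convertase that cuts the endothelin precursor, which averaged 7.81 ± 0.27 in CENPU clones, against 8.41 ± 0.31 in controls (SD, n = 5 each). Its log2 difference was -0.60 ± 0.17 (SE, limma adjusted p = 0.0455), its groups overlapped, it passed in 2 of 10 fits without 1 clone, and after median centring of the arrays 0 of these genes passed. ECE1, which makes the active peptide, had a log2 difference of -0.33 (limma adjusted p = 0.183), the other ligands EDN2 and EDN3 had -0.14 and -0.13, and the receptor EDNRB had 0.10.

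Around CLU, 0 of 9 measured receptors and other extracellular chaperones passed in limma and 4 had an unadjusted p under 0.05, with a median of -0.10. VLDLR, a receptor for clusterin and reelin, had a log2 difference of 0.58 (limma adjusted p = 0.144), and APOE one of -0.24 (limma adjusted p = 0.109).

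Of 25 measured growth factors 1 was lower, 0 higher and 24 did not pass, with a median of -0.08. BMP4, a bone morphogenetic protein, averaged 6.72 ± 0.33 in CENPU clones, against 7.67 ± 0.26 in controls (SD, n = 5 each), without overlap (log2 difference -0.96 ± 0.17 SE, limma adjusted p = 0.00804). Of 22 secreted matrix proteases and inhibitors 2 were lower and 20 did not pass, with a median of -0.06. TIMP1, the metalloprotease inhibitor, fell by 0.84 ± 0.16 (SE, limma adjusted p = 0.0117) and CTSL, a lysosomal cysteine protease that is also secreted, by 0.57 ± 0.15 (SE, limma adjusted p = 0.0327). BMP4 and TIMP1 passed in all 10 fits without 1 clone and without the 3 clones, where they differed by -1.09 and -0.95. CTSL passed in 5 of the 10, and also without the 3 clones (-0.78, limma adjusted p = 0.0208).

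Genes of the machinery that secreted proteins share were higher where they passed. Of 24 measured genes of signal peptide recognition, translocation and export in COPII vesicles 6 were higher, 0 lower and 18 did not pass. Over all genes 5.31% were higher and 4.79% lower. The median of the 24 genes was 0.44, beside -0.02 over all genes. After quantile normalization 5 of the 24 were higher, and after median centring 3. SEC11A, a catalytic subunit of the signal peptidase, rose by 0.61 ± 0.13 (SE, limma adjusted p = 0.0177). SRP54, the subunit that binds signal peptides, rose by 0.82 ± 0.20 (SE, limma adjusted p = 0.0249), and SAR1B, the GTPase that starts the COPII coat, by 0.72 ± 0.17 (SE, limma adjusted p = 0.0252). SRP68, SRP72 and SEC63 rose by 0.46, 1.38 and 1.00 (limma adjusted p = 0.0458, 0.0480 and 0.0494), the last 2 named after their values were seen. SRP72 had values of 9.24, 9.42, 10.3, 10.8 and 10.97 in CENPU clones 1, 4, 5, 7 and 13, against 9.11, 7.55, 9.11, 8.86 and 9.21 in control clones 1 to 5, so CENPU 7 and 13 were highest and control 2 lowest, as in the span trend. Without those 3 clones 0 of the 24 genes passed in limma and the median was 0.09, whereas over the fits without 1 clone between 0 (without control clone 4) and 8 were higher. The part of the trend in these differences was not tested.

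**Figure D4:**
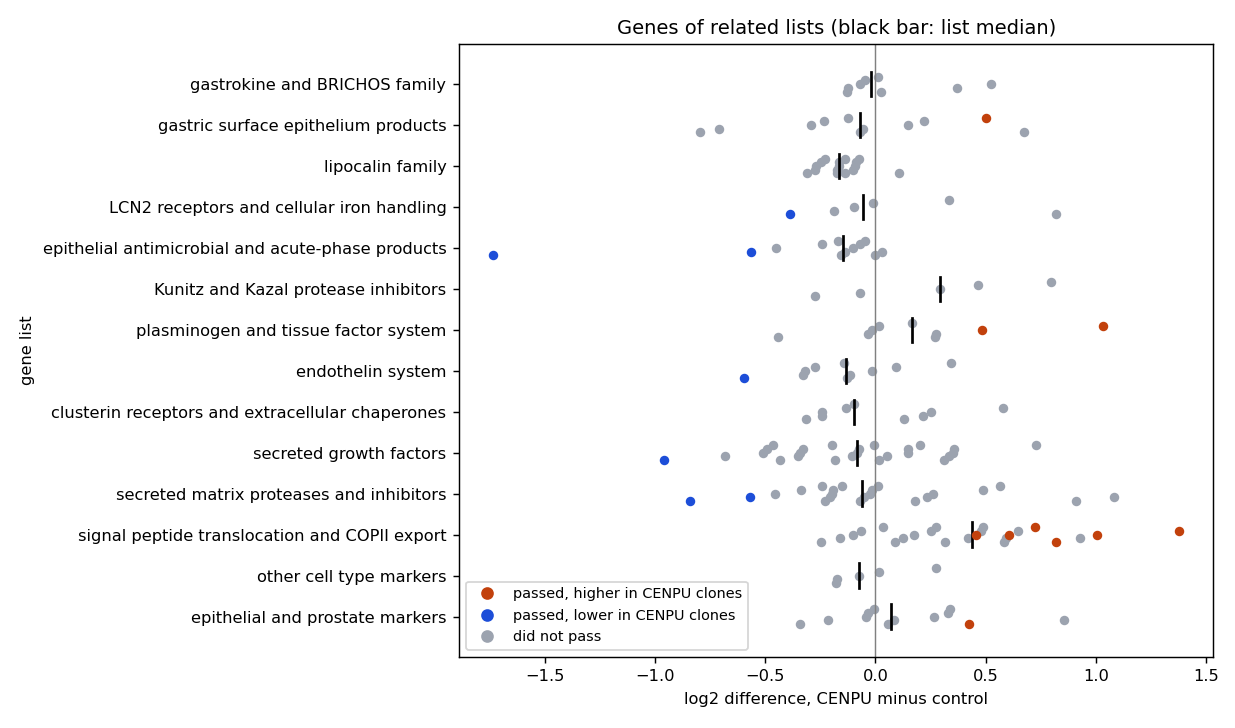
Log2 difference (CENPU minus control) of each measured gene in 14 lists of related genes, the 5 members left out. Grey points did not pass the adjusted threshold, coloured points did, and black bars mark list medians, which lie between -0.16 for lipocalins and 0.44 for signal peptide translocation and COPII export.

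Across the 14 lists together, 171 genes other than the members were measured. Of these 10 were higher, 7 lower and 154 did not pass, so 9.94% were called, beside 10.1% of all genes. The median log2 difference was -0.05 over these genes and -0.02 over all genes.

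The members lie on 5 different chromosomes, and the 2 nearest measured genes on each side of each were compared, a set chosen after the members' values were known. Of the 20 neighbours 3 were lower, 1 was higher and 16 did not pass, where 4.79% of all genes were lower and 5.31% higher. The median log2 difference of the neighbours was -0.07, beside -0.02 over all genes. The neighbours of GKN2, TFPI2 and EDN1 did not pass. LCN2 had a lower neighbour on either side. PTGES2, a prostaglandin E synthase, averaged 8.25 ± 0.14 in CENPU clones, against 9.01 ± 0.21 in controls (SD, n = 5 each) (log2 difference -0.76 ± 0.12 SE, limma adjusted p = 0.00432). BBLN averaged 6.25 ± 0.14 in CENPU clones, against 7.15 ± 0.38 in controls (SD, n = 5 each) (log2 difference -0.91 ± 0.17 SE, limma adjusted p = 0.00934). Both passed in all 10 fits without 1 clone and also without control 2, CENPU 7 and CENPU 13, where they differed by -0.68 and -0.78. PTGES2-DT and CIZ1, also beside LCN2, differed by -0.26 and -0.23 (limma adjusted p = 0.154 and 0.148), short of the threshold.

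Beside CLU the neighbours moved in both directions. TRIM35 was lower by 0.47 ± 0.10 (SE, limma adjusted p = 0.0174) and CCDC25 higher by 0.94 ± 0.25 (SE, limma adjusted p = 0.0363). CCDC25 passed in 3 of 10 fits without 1 clone, and TRIM35 in 9, not without control clone 4. Neither passed without control 2, CENPU 7 and CENPU 13, where CCDC25 differed by 0.46 and TRIM35 by -0.43 (limma adjusted p = 0.159 and 0.0984). Over the fits without 1 clone between 2 (without control clone 4) and 6 of the 20 neighbours passed in all, and under the other alternatives between 0 and 5. ESCO2, a cohesin acetyltransferase, had a log2 difference of -0.41 and did not pass with all clones (limma adjusted p = 0.401), but was lower without control 2, CENPU 7 and CENPU 13 (-1.04, limma adjusted p = 0.0109).

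**Figure D5:**
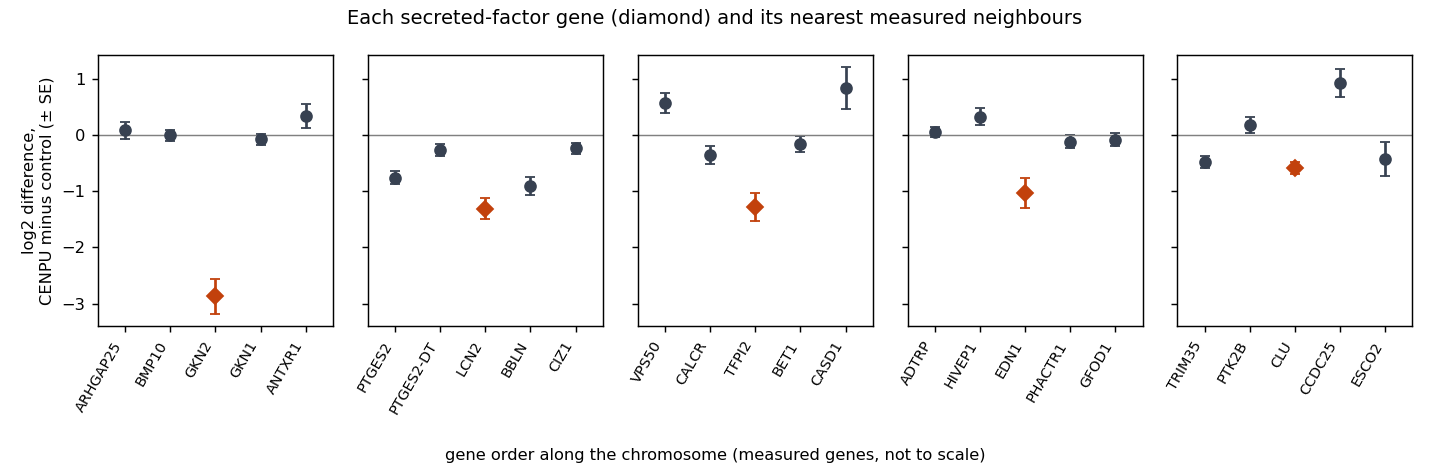
Log2 differences (CENPU minus control, ± SE) of each of the 5 genes (diamond) and its nearest measured neighbours in chromosomal order, with distances not to scale. The neighbours of GKN2 lie between -0.07 and 0.35 while GKN2 is at -2.87, and all 4 neighbours of LCN2 lie below 0.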

How the data were processed

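RNA of 5 CENPU and 5 control clones was measured on 10 arrays. The authors deposited log2 values in 1 table of 53617 rows, made with Partek and RMA (versions not given in the sources used here), per the submitters' processing notes. RMA corrects background, equalises quantiles between arrays and summarises probes, so a change common to most genes can be removed and dim rows are compressed. Array medians of the deposited values still differed (4.62 to 4.76), and what Partek did besides RMA was not given. The log2 scale was read from the range of the deposited values. Arrays have no read depth, so the number of clones limits the precision.

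The platform table gave 16098 rows 1 symbol each (14884 genes after updating symbols by gene ID to RefSeq, GRCh38.p14), here called named rows. The other 37519 rows, with no symbol there or more than 1, were left out of the fits, except where all rows were tested. Genes found only in those rows do not count as measured. The row of highest mean stood for a gene. Groups came from the sample titles. limma 3.58.1 in R 4.3.3 (lmFit, eBayes, no covariates) was fitted to all named rows, with Benjamini-Hochberg adjustment and a threshold of 0.05. Standard errors are from this fit, which was tested on simulated data. The limma p-values set the difference between the groups against the spread between clones of this 1 cell line. Correlations used values centred on group means and all 14400 permutations within groups. Promoter windows are from RefSeq.

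The members, gene lists and tests were chosen with earlier results of these data known. List genes were named by smallest p, at most 4 a list, with receptors, ligands and processing enzymes of the members added. The 3 genes most like each member were taken among genes with a mean of at least 5, without locus identifiers, small RNAs and olfactory receptors. TFF1, GKN1, VSIG1, KRT18, KLK3, CD14, SRP72, SEC63 and the neighbours were added after values were seen. Alternatives were quantile normalization, median centring, a minimum mean of 5, all rows, array weights, trended robust eBayes, a block by clone number, the mean of a gene's rows, thresholds of 0.01 and 0.10, leaving out clones, and, for correlations, Spearman ranks and centring on medians.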

Additional observations from a re-analysis of the deposited data

Results flagged for a closer look

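A clone far from the other 4 of its group was looked for in 55 named genes, or 110 groups of 5 clones, by the gap to the nearest clone over the range of the group, which chance passes in about 1 of 20 groups. It was found in 6. EDN1 was 6.93 in control clone 3, against 5.59 to 5.75 in the other controls. ITM2A was 5.91 in control clone 1, against 5.25 to 5.38 in the others. S100P was 6.54 in CENPU clone 7, against 5.85 to 6.01 in the other CENPU clones. TFPI was 7.07 in CENPU clone 13, against 5.07 to 5.61. SAR1B was 6.58 in control clone 1, against 5.89 to 6.02. HOXB13 was 11.6 in CENPU clone 13, against 11.1 to 11.3.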

How the results depend on the processing

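The log2 differences of GKN2, LCN2, TFPI2, EDN1, CLU and CENPU kept their sign and moved by less than 1 pooled SD under all 19 alternative fits of each. Of those fits GKN2 passed in 19, LCN2, TFPI2 and CLU in 18 and EDN1 in 8. All 5 members were called in all clones, 4 or 5 without 1 clone, 3 without control 2, CENPU 7 and CENPU 13, and 2 at an adjusted p under 0.01. Genes called numbered 1504, and without 1 clone between 613 and 2471 (613 without control 4, 2471 without CENPU 1, and at most 864 without CENPU 5, 7 or 13 or control 2, 3 or 5), 470 without the 3 clones, 253 at 0.01 and 2588 at 0.10. List genes called numbered 17, between 3 (without control 4) and 26 (without CENPU 1) when 1 clone was left out, 4 without the 3 clones, 9 with all rows of the table tested, 1 at 0.01 and 29 at 0.10. Clone numbers 1, 4 and 5 occur in both groups, and the deviations of same-numbered clones correlated by -0.38, 0.10 and 0.02. These correlations run across genes and also hold trends shared by many genes. They cannot decide whether same-numbered clones share more than a number. With the replicate block, which rests on these 3 pairs, 55 genes, 2 members and 1 list gene were called. Of the pair correlations 0 passed under any of the 14 alternatives run for it. Dim rows, GKN2 in CENPU clones among them, limit how large a fall can be measured.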
